A study of Mus musculus with 2 samples.

Results

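The 10 genes described here store and release triglyceride: the secreted lipase Lpl and its inhibitor Angptl4, the cellular lipases Pnpla2 and Lipe with the co-activator Abhd5, the lipid droplet coat proteins Plin2, Plin4 and Plin5, and the acyltransferases Dgat1 and Dgat2. They were chosen by gene symbol, and all 10 of the 10 symbols were found among 55536 mouse genes. Their levels came from total RNA sequencing of heart tissue of 2 adult female mice aged 8 to 10 months. Both animals were of strain B6CASTF1/J, which is a first-generation cross of C57BL/6J and CAST/EiJ, and no treatment is named in the labels. There is 1 group and no control, so, from 42223411 and 40553237 expected counts, each gene is described by its level in replicate 1 (labelled animal 1) and replicate 2 (labelled animal 3), and no test between conditions was possible.

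Triglyceride reaches the heart in circulating lipoproteins. Lipoprotein lipase, made by cardiomyocytes and carried to the capillary surface by GPIHBP1, splits it there, and ANGPTL4 inactivates the enzyme. Inside the cell, DGAT enzymes add the last fatty acid of triglyceride, perilipins coat the droplet that holds it, and ATGL (the product of Pnpla2), activated by ABHD5, removes the first fatty acid before hormone-sensitive lipase (the product of Lipe) removes the next. Fatty acids released in this way feed mitochondrial oxidation and activate the nuclear receptor PPAR-alpha.

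For 3 of the 10 genes the transcript with the largest share of the RNA was annotated as a target of nonsense-mediated decay, the removal of mRNAs whose reading frame ends early. Of all 3155 expressed genes with a decay and a coding transcript, a set that holds only 6 of the 10, 5.13% were led by such a transcript. The bases that set those transcripts apart from a transcript with the complete frame are shown because the shares given later turn in part on them. In Pnpla2-201 an extra exon of 82 bases (chr7:141456568-141456649, mm10, plus strand) follows the bases that Pnpla2-203 joins directly to the next coding exon. Capitals mark the start of the extra exon, up to and including the stop codon that it brings into frame.
Pnpla2-201: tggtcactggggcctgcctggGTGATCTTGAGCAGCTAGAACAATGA
Pnpla2-203: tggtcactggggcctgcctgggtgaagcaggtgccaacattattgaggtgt
The reading frame of Pnpla2-201 ends after 70 codons, against 486 in Pnpla2-203. In Abhd5-201 the extra exon has 50 bases (chr9:122363815-122363864, plus strand), in capitals, and the stop follows shortly after it, so that the frame ends after 38 codons, against 351 in Abhd5-204.
Abhd5-201: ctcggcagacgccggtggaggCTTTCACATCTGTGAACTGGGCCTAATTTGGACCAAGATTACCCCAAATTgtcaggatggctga
Abhd5-204: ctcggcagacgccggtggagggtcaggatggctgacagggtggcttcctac
Angptl4-202 lacks 4 bases (chr17:33780644-33780647, minus strand) at the start of an exon. Those bases are in capitals in Angptl4-201, and the stop codon that ends the frame of Angptl4-202 after 154 codons, against 410, is in capitals in its line.
Angptl4-201: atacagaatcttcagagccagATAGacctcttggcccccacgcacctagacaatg
Angptl4-202: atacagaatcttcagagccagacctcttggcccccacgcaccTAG
All these sequences are from the GENCODE M21 transcripts, written 5′ to 3′. None of the 3 differences is a multiple of 3 bases.

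All 10 genes were at 1 TPM or more in both hearts. In the table derived from FASTQ reads 9 were, as Angptl4 was at 0.84 TPM there in replicate 2. TPM is a level corrected for transcript length, out of a fixed total for the library, that can be compared between genes. Of all nuclear protein-coding genes, 48.8% reached 1 TPM in both hearts. The median of these expressed genes was 8.46 TPM in replicate 1 and 7.41 in replicate 2. The 10 genes ranged from Lpl, at a mean of 1422 TPM, to Angptl4, at 1.81 TPM, and their order was the same in both animals and in both kinds of transcript table. Plin2 and Plin5 were the only neighbours in that order whose values in the 2 animals overlapped. Together the 10 genes held 2036 TPM in replicate 1 and 1720 in replicate 2, of which Lpl alone made 76.3% and 75.0%.

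**Figure D1:**
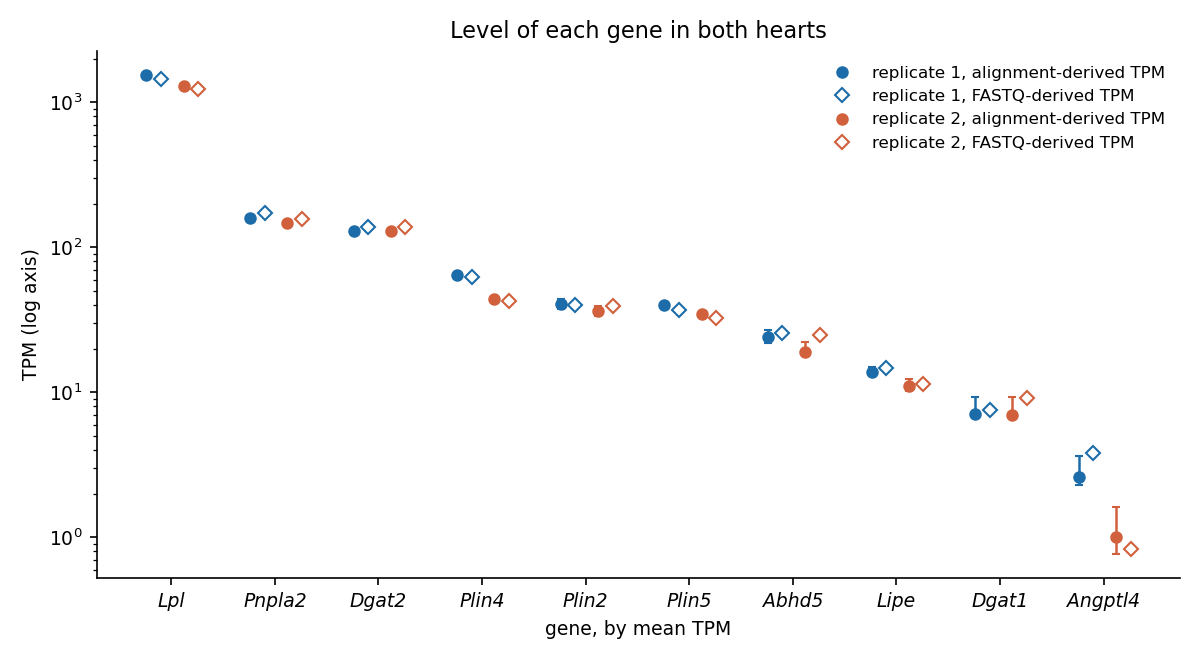
TPM of the 10 genes on a log axis. Filled circles are the gene table (bars: deposited credibility bounds) and open diamonds the sum over transcripts of the table derived from FASTQ reads, in blue for replicate 1 and orange for replicate 2. The circles fall from 1553 and 1291 TPM for Lpl to 2.61 and 1.00 for Angptl4, the pair of circles that lie farthest apart.

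Lpl (ENSMUSG00000015568.16, chr8:68880491-68907448, plus strand) was at 1553 TPM in replicate 1 and 1291 in replicate 2, a mean of 1422 ± 186 TPM (SD, n = 2). It ranked 20 of 21938 nuclear protein-coding genes. Behind these levels stood 176123 and 145406 expected counts, so counting error was small. The deposited credibility bounds ran from 1512 to 1530 TPM and from 1255 to 1273 TPM. They held the posterior mean TPM (1521 and 1264) but not the plain TPM in either animal. They therefore do not bound the uncertainty of the plain level. The bounds of Plin4 in replicate 1 also left out its plain TPM.

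Angptl4 (ENSMUSG00000002289.16, chr17:33773750-33781830, minus strand), which encodes the LPL inhibitor, was the lowest of the 10 at 2.61 TPM in replicate 1 and 1.00 in replicate 2. Its credibility bounds, 2.31 to 3.66 TPM and 0.77 to 1.63 TPM, did not overlap. Nor did those of Lpl, Pnpla2, Lipe, Plin4 and Plin5, and the share over all genes is not given here. Lpl stood 870-fold above Angptl4 by the mean log2 ratio of 9.77 ± 0.78 (SD, n = 2), and the ratio was 9.21 in replicate 1 and 10.32 in replicate 2. With 172 and 53 counts, Angptl4 had the widest relative uncertainty of the 10 genes.

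Pnpla2 (ENSMUSG00000025509.15, chr7:141455198-141460743, plus strand), the gene of the first lipase of the droplet, was the next highest after Lpl at 160.5 and 146.6 TPM (153.5 ± 9.86, SD, n = 2). Lpl exceeded it 9.23-fold. Lipe (ENSMUSG00000003123.15, chr7:25379527-25398710, minus strand), the gene of the following lipase, was at 13.8 and 11.0 TPM, so Pnpla2 exceeded Lipe 12.5-fold (log2 ratio 3.64 ± 0.14, SD, n = 2). Abhd5 (ENSMUSG00000032540.16, chr9:122351608-122381524, plus strand), whose product activates ATGL, was at 24.0 and 19.1 TPM. Pnpla2 stood 7.16-fold above this co-activator (log2 ratio 2.84 ± 0.14, SD, n = 2). Each of these ratios was more than 3 times its SD between the animals and so was ordered the same way in both. In Abhd5, 16.6% of the words of 31 bases in its transcripts also occur in transcripts of other genes, on either strand, and in Lipe 12.9% do. Reads from such words can be split between genes in these tables. Both genes overlap an antisense gene, A730085K08Rik at 0 TPM in both hearts for Abhd5 and 4732471J01Rik at 0.25 and 0.22 TPM for Lipe.

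Of the 3 perilipin genes described here, Plin4 (ENSMUSG00000002831.13, chr17:56100591-56109803, minus strand) was the highest at 64.9 TPM in replicate 1 and 43.8 in replicate 2. Plin4 encodes a coat protein with a long repeat region. Plin2 (ENSMUSG00000028494.12, chr4:86648386-86670060, minus strand), the perilipin found on droplets of most cell types, was at 40.97 and 36.6 TPM. Plin5 (ENSMUSG00000011305.11, chr17:56111601-56117596, minus strand), which ties droplets to mitochondria in oxidative tissue, was at 40.3 and 34.7 TPM. Plin4 was above the other two in each animal, but by log2 ratios of 0.46 ± 0.28 to Plin2 and 0.51 ± 0.24 to Plin5 (SD, n = 2), neither of which reached 3 times its SD. Plin5 and Plin2 differed by 0.05 ± 0.04 on the log2 scale. The levels of the 3 perilipin genes were thus not ordered beyond the spread between the animals. One exon of Plin4, of 2085 bases, matched itself best at a shift of 99 bases, which is 33 codons: 62.1% of its bases equalled the base at that distance, against 24.6% at a shift of 1. No word of 31 bases in Plin4 occurs in another gene. Its last exon overlaps Hdgfl2, on the other strand, by 17 bases.

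The 2 enzymes that make triglyceride were far apart. Dgat2 (ENSMUSG00000030747.5, chr7:99153658-99182719, minus strand) was at 128.8 and 130.0 TPM and Dgat1 (ENSMUSG00000022555.12, chr15:76502015-76511953, minus strand) at 7.12 and 7.02 TPM. Both enzymes join the last fatty acid to diacylglycerol, but they are unrelated in sequence. Dgat2 exceeded Dgat1 18.3-fold, with a log2 ratio of 4.19 ± 0.02 (SD, n = 2). From the table derived from FASTQ reads it was 16.7-fold (4.07 ± 0.19). Dgat1 rested on 334 and 317 counts.

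The hearts were then compared with each other as a measure of how far 2 animals of 1 group differ. Log2 ratios of replicate 2 over replicate 1 were taken of TPM + 0.1, and the median of 11876 genes, -0.18, was subtracted from each. Of the 10 genes, 6 were lower and 4 higher in replicate 2. Their median was -0.06, and the median size of the difference was 0.14, as for all genes compared (0.14). At 2-fold or more apart stood 1 of the 10, Angptl4, against a background of 1.41% of all genes. The same 1 gene was 1.5-fold apart (background 5.78%), and 2 genes, with Plin4, were 1.2-fold apart (background 26.4%).

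Angptl4 differed by -1.12 on the centred log2 scale, which is 2.17-fold more in replicate 1, and 1.02% of all genes lay farther from 0. Its expected counts gave -1.51, with a 95% exact interval of counting error from -1.99 to -1.07. Over the centred settings the value ran from -1.93 in the table derived from FASTQ reads to -0.69 with a pseudocount of 1, which is under 2-fold. Plin4 was lower in replicate 2 by 0.38 on the same log2 scale, and counts gave -0.38 with an interval from -0.42 to -0.34. Of all genes, 14.8% lay farther out than Plin4, so its difference was within the common spread between these animals. The other 8 genes lay between -0.14 for Abhd5 and 0.20 for Dgat2. Of these Dgat1, at 0.16, was at 0.10 by counts. In the table derived from FASTQ reads Dgat1 was at 0.42, past 1.2-fold and farther from 0 than Plin4 there (-0.39). The sign was the same in all the centred settings for 8 of the 10 genes, the exceptions being Abhd5 (-0.18 to 0.11) and Plin2 (-0.01 to 0.12). Without centring 9 of the 10 were lower in replicate 2, Dgat2 being at 0.01.

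**Figure D2:**
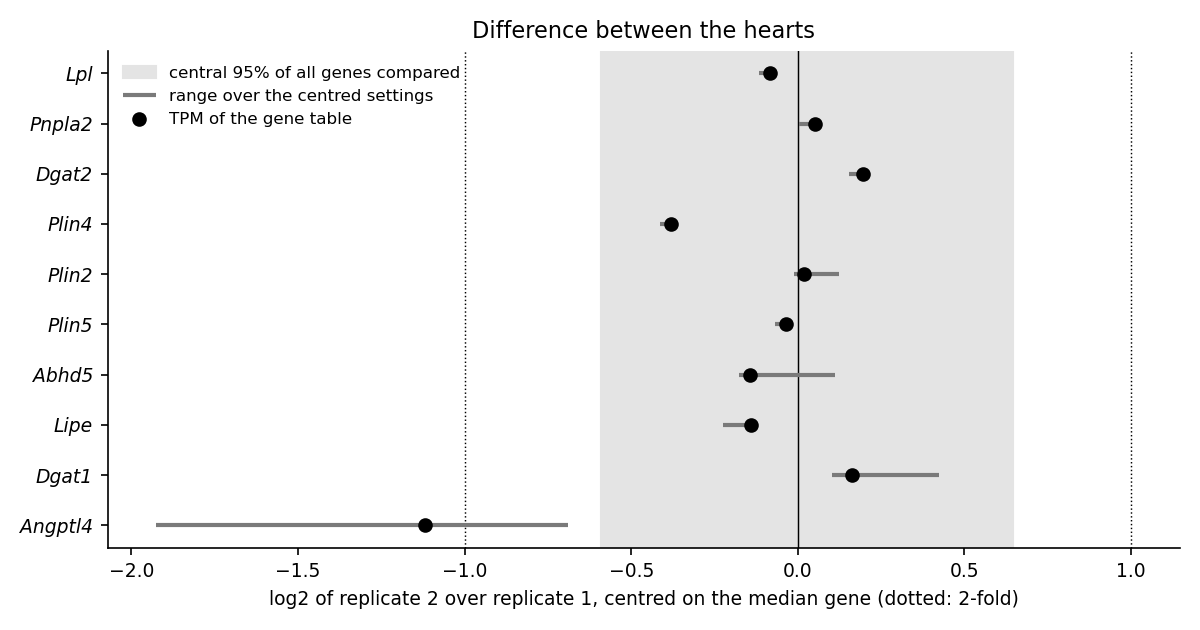
Centred log2 ratio of replicate 2 over replicate 1 for each gene (points), with the range over the centred settings (grey lines), on the range that holds the central 95% of all genes compared (grey band, -0.59 to 0.64). Angptl4 at -1.12 lies outside the band and the other 9 genes lie inside it.

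White adipocyte markers were measured because epicardial or surrounding fat expresses Lipe, Plin4, Lpl and Dgat2 strongly. Of 8 such markers 3 were at 1 TPM or more in both hearts, and the list summed to 14.1 TPM in replicate 1 and 10.4 in replicate 2. Of the list, Adipoq was at 0.91 and 1.03 TPM, Plin1 at 1.63 and 1.18, Cidec at 1.13 and 0.94, Pck1 at 2.05 and 1.66, and Lep at 0.02 and 0.03. Cfd was the highest of the list at 7.56 and 4.93 TPM. By TPM the 4 markers that reached the minimum for comparison were lower in replicate 2 after centring (median -0.18). Of these Cidec, at -0.06, was higher in replicate 2 by counts (0.56) and in the table derived from FASTQ reads (0.38), and Pck1, at -0.11, was higher in the latter (0.17). Under the minimum, Retn was at -0.54 and Adipoq, Lep and Adrb3 at 0.34, 0.30 and 0.67, with Adipoq at -0.14 by counts. The part of fat cells in the levels of the 10 genes was not tested. Of the brown adipocyte markers, Zic1 was at 0 counts in both hearts, Ucp1 at 0.74 and 1.44 TPM, and Cidea, also a droplet protein, at 15.0 and 12.9 TPM.

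The tissue label was checked against markers of heart cells. All 6 cardiomyocyte markers were expressed, led by Myl2 at 9509 and 8772 TPM. All 8 endothelial markers (highest Egfl7, 56.5 and 38.2 TPM) and all 7 fibroblast markers (highest Dcn, 121.5 and 104.0 TPM) were expressed too, and 7 of 8 macrophage markers (highest Lyz2, 34.4 and 26.9 TPM). Of the 8 skeletal muscle markers 5 were, with Ckm, which the heart also expresses, at 1445 and 1303 TPM. None of the 5 liver markers was expressed. Their highest was Ttr at 0.16 and 0.35 TPM, and Serpina1a was at 0 counts. Which cells of the heart made each RNA cannot be told apart in tissue RNA, and neither can fewer cells and less RNA per cell.

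Transcript shares described which form of each gene made up its RNA. A share is the percent of the gene's TPM given to a transcript. Of the 10 genes 9 had, in the alignment-derived table, the same leading transcript in both animals, the exception being Lipe, and 8 did in the table derived from FASTQ reads. Dgat2-201 held 99.5% and 99.1% of Dgat2. Shares of transcripts that differ by few bases rest on few reads and on the tables' own models.

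In 3 of the 10 genes, Angptl4, Pnpla2 and Abhd5, the leading transcript in both animals was annotated for nonsense-mediated decay. The background of 5.13% is over genes at 1 TPM or more that have both kinds of transcript, a set that holds 6 of the 10. In both tables the decay transcript led in 2 of them, Pnpla2 and Abhd5, against 3.2% of those genes. At 5 TPM or more the shares of all genes were 4.91% and 3.35%.

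Pnpla2-201 held 62.4% of Pnpla2 in replicate 1 and 61.9% in replicate 2, and 43.7% and 43.5% in the table derived from FASTQ reads. Pnpla2-203, the transcript with the complete frame of 486 codons, held 3.70% and 6.47%. Another 14.5% and 13.5% went to Pnpla2-202, whose frame has 1290 coding bases in place of 1458, and 15.3% and 16.5% to Pnpla2-206, a transcript cut short in the annotation. The decay transcripts Pnpla2-201 and Pnpla2-204 both carry the extra exon, and 134 words of 31 bases occur in these and in no other Pnpla2 transcript. Pnpla2-201 has no word of its own, so its share rests on the combination of its parts. Its 3′ end lies at position 141460092 of chromosome 7, whereas Pnpla2-203 ends at 141460743. Pnpla2-202 ends close to Pnpla2-201, at 141460094, but has the shorter frame. No annotated transcript joins the frame of 486 codons to the nearer end. The share of Pnpla2 RNA that carries the extra exon was not measured directly by these tables.

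Abhd5-201 held 43.6% and 54.2% of Abhd5 in the alignment-derived table and 40.2% and 36.7% in the other. Abhd5-204, with the complete frame, held 29.5% and 28.4%. When shares were taken of expected counts in place of TPM, Abhd5-204 led in both animals with 48.4% and 43.8%, since it is the longer transcript (3157 bases against 1386). Abhd5-201 also ends earlier than either transcript with a complete annotated frame, at position 122379825 of chromosome 9 against 122381524. The decay transcripts Abhd5-201 and Abhd5-205 together have 56 words that no other Abhd5 transcript has. Abhd5-205 lacks the extra exon, whereas Abhd5-203, a coding transcript cut short in the annotation, carries it. Abhd5-203 was listed at 0 in both animals and both tables. These words thus do not measure the share of Abhd5 RNA with the extra exon.

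Angptl4-202 held 70.2% and 74.0% of Angptl4, and Angptl4-201, the complete form, 21.4% and 6.0%. In the table derived from FASTQ reads, Angptl4-202 held 43.5% in replicate 1, where a noncoding transcript, Angptl4-204, held 44.2%, and 91.5% in replicate 2. Angptl4-202 is told from its gene's other transcripts by 27 words of 31 bases. With 172 and 53 counts in all, these shares are imprecise.

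**Figure D3:**
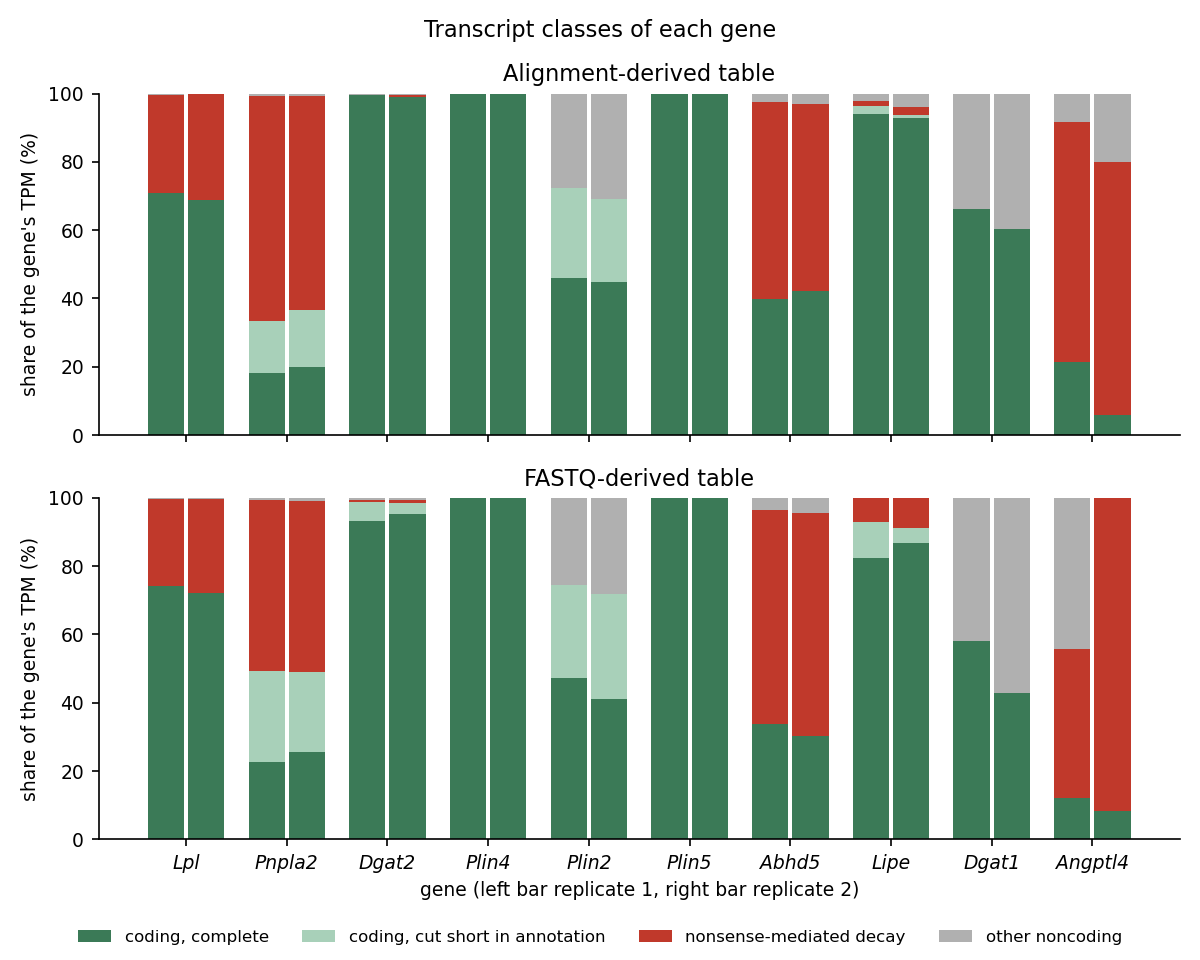
Percent of each gene's TPM in 4 annotated classes of transcript, as stacked bars that start at 0, for replicate 1 (left bar) and replicate 2 (right bar), from the alignment-derived table (top) and the table derived from FASTQ reads (bottom). Red is the nonsense-mediated decay class. It averages 64.3% of Pnpla2, 56.1% of Abhd5 and 30.02% of Lpl in the top panel. In the bottom one it averages 50.03%, 63.9% and 26.5%. Plin2, Plin4, Plin5 and Dgat1 have no red because none of their transcripts is annotated to that class.

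Lpl also has a decay-annotated transcript, but with another structure. Lpl-203 held 28.9% and 31.1% of Lpl (25.4% and 27.6% in the table derived from FASTQ reads) and has the same coding sequence of 474 codons as Lpl-201, which held 70.8% and 68.7%. It differs beyond the stop codon: the last exon of Lpl-201, of 2429 bases, is cut to 62 bases in Lpl-203 and joined to a further exon of 216 bases. At 449 and 402 TPM, Lpl-203 alone exceeded the whole level of every other gene of the 10 in both hearts. Because it is shorter, its share of expected counts was lower, 15.4% and 16.9%.

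Lipe and Plin5 are each transcribed from more than 1 annotated start, and most of the RNA of each came from transcripts that share 1 coding sequence. Plin5-201 and Plin5-202 start 298 bases apart and have the same coding sequence of 463 codons. Plin5-201 held 51.3% and 51.9% and Plin5-202 the rest, a near even split that the table derived from FASTQ reads also gave (48.4% and 52.6%). Lipe-202 and Lipe-208 start 882 bases apart and share a coding sequence of 2277 bases. Lipe-208 held 48.9% and 41.5% and Lipe-202 42.6% and 45.8%, so which one led differed between the animals in the alignment-derived table. In the table derived from FASTQ reads Lipe-208 led in both (48.9% and 44.4%, against 30.5% and 37.0%), as it did by expected counts. Lipe-201, which starts 6273 bases further upstream than Lipe-202 and has 2406 coding bases, held 2.40% and 5.46%. Lipe-204, the longest form with 3216 coding bases, was listed at 0 in both animals and both tables.

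For Plin5 and Lipe, the start regions with a RefSeq window near a transcript with a large share are shown. They are both Plin5 starts and that of Lipe-202. Abhd5, Plin2, Plin4 and Pnpla2 also have such windows, which are not shown. The windows shown are from RefSeq (GRCm38.p6), 250 bases before and 50 after the start, minus strand. Capitals mark AGGTCA, the half-site bound by PPAR and other nuclear receptors. The first 2 windows lie at chr17:56117499-56117798 and chr17:56117249-56117548, and they overlap each other. The start site of the former is 48 bases from that of Plin5-201, and that of the latter is the start site of Plin5-202. The Lipe window lies at chr7:25390063-25390362 and its start is 6 bases from that of Lipe-202; it holds no AGGTCA.
Plin5 upstream: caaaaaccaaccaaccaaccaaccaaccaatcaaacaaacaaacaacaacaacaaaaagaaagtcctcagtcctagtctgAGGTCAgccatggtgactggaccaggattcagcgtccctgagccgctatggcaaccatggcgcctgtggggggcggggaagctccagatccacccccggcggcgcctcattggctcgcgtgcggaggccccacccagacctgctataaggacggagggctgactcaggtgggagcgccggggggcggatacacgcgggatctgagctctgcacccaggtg
Plin5 downstream: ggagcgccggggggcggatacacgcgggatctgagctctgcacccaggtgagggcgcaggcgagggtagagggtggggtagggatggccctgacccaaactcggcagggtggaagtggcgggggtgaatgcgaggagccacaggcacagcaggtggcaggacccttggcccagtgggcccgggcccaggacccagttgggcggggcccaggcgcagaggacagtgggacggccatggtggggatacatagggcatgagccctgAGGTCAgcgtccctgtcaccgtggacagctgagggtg
Lipe: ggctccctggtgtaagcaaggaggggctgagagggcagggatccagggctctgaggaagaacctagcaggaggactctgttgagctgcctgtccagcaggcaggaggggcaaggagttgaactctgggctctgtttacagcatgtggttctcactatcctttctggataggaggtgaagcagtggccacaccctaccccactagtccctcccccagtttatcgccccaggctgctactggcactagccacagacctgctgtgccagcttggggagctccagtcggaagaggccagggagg
RefSeq windows were matched for 6 of the 10 genes, 8 windows in all. AGGTCA was found, on either strand, in 4 of the 8 (Abhd5, Plin2 and both of Plin5), against 16.3% of 32851 windows. AGGTCA repeated with 1 base between, an exact form of the PPAR element, was in none of the 8 and in 0.0396% of all. Forms of that element that differ from it in any base were not searched. CACGTG, the E-box letters, was in 2 of the 8 (Plin2 and the Lipe window at chr7:25395938-25396237, which is not the one shown), against 7.15%, and ACGTG, which it contains, in the same 2 genes against 19.6%. A match in these windows is a description of letters and shows no binding.

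The other forms gave little to compare. Plin4-202 was given 99.7% and 100% of Plin4 in one table and 67.1% and 67.3% in the other, but Plin4-201 lies wholly inside it and is 1 base shorter, so that split has no meaning. Plin2-201 held 45.9% and 44.9% of Plin2 TPM, and Plin2-208, a short noncoding transcript, 27.1% and 30.3%. For another form the tables chose different transcripts with the same coding length, Plin2-205 (26.3% and 24.2%) in the first and Plin2-207 (27.0% and 25.5%) in the second. Dgat1-201 held 66.2% and 60.4% of Dgat1, and Dgat1-203, which keeps an intron, 26.0% and 21.1%.

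The genes around these 10 in the same pathways were counted from lists. Of the 8 genes that mature or control LPL, 4 were expressed, led by Gpihbp1, its capillary carrier, at 32.9 and 30.3 TPM, Sel1l at 23.0 and 19.8, and Lmf1 at 11.3 and 9.67, both needed for LPL to fold. Angptl8, Apoc2, Apoc3 and Apoa5 were under 1 TPM in both, the last pair at 0 counts. Of 15 uptake and activation genes 13 were expressed, led by Fabp3 (2431 and 2029 TPM), the fatty acid binding protein of heart, Cd36 (664 and 524), the fatty acid translocase, and Acsl1 (345 and 305), which activates fatty acids. Slc27a6 was under 1 TPM.

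Among 14 other lipases and lipolysis regulators 10 were expressed. Ces1d, a carboxylesterase, was the highest at 151.9 and 102.5 TPM. It was below Pnpla2 in both hearts, by less in replicate 1 than in replicate 2. Mgll, which splits the last fatty acid from glycerol, was at 40.0 and 25.8 TPM, and G0s2, the inhibitor of ATGL, at 24.5 and 26.9. G0s2 was thus close to Abhd5 in level in replicate 1 and above it in replicate 2. Lipg, Lipc, Pnpla3 and Ces1f were under 1 TPM in both.

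Of 13 other droplet proteins 10 were expressed, led by Fitm1 and Fitm2, which help droplets to bud, at 74.5 and 65.3 and at 76.0 and 60.2 TPM, and Plin3 at 63.2 and 69.4. Plin3 was thus above Plin2 and Plin5 in both hearts. It was above Plin4 in replicate 2, and in both hearts in the table derived from FASTQ reads. Cideb and Hsd17b13 were under 1 TPM in both. Of 17 genes of glycerolipid and sterol ester synthesis 13 were expressed, led by Agpat3 (83.4 and 65.5 TPM), Gpam (62.8 and 58.9), which starts glycerolipid synthesis, and Lpin1 (56.0 and 47.8), which makes the diacylglycerol that DGAT enzymes use. Dgat2 was above each of these in both hearts. Gpat2, Mogat1, Mogat2 and Soat2 were under 1 TPM.

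All 8 PPAR regulators were expressed, led by Ppargc1a at 39.1 and 31.5 TPM, Rxrg at 23.6 and 20.3, and Ppara at 23.3 and 16.8. Of 10 PPAR and fasting targets 8 were expressed, led by Acadm (441 and 404 TPM), Cpt1b (248 and 206) and Pdk4 (138.7 and 76.2), with Cyp4a14 and Fgf21 under 1 TPM. Angptl4 is itself a target of PPARs, glucocorticoids and hypoxia, so the lists for these were read beside its difference. Genes of these 3 target lists that were 1.5-fold or more apart (background 5.78%) were 1 of the 8 compared for PPAR and fasting, Pdk4, which was lower in replicate 2 at -0.68 on the centred log2 scale. They were 2 of 8 glucocorticoid targets, Zbtb16 at -1.37 and Per1, also a clock gene, at 1.38, which lay on opposite sides of 0. They were 1 of 7 hypoxia targets, Ankrd37 at -1.31, on 94 and 32 counts. Of the glucocorticoid targets, Fkbp5 at -0.56 and Ddit4 at 0.52 lay under 1.5-fold by TPM. Fkbp5 passed it by counts (-0.64) and in the table derived from FASTQ reads (-0.71), which Ddit4 did not (0.53 and 0.40). The hypoxia target Pfkfb3, at 0.20 by TPM, passed it by counts (0.70) but not in that table (0.52). The medians of the 3 lists were -0.05, 0.04 and -0.08. The highest glucocorticoid targets were Zbtb16 at 74.9 and 25.4 TPM, Tsc22d3 at 44.6 and 42.1, and Klf9 at 37.0 and 33.6. The highest hypoxia targets were Bnip3 at 110.6 and 101.7 TPM, Vegfa at 84.4 and 60.3, and Egln3 at 38.9 and 26.9, and Car9 was under 1 TPM. The part of any of these regulators in the Angptl4 difference was not tested. In the 5 other pathway lists and that of PPAR regulators, Soat1, which esterifies cholesterol, was more than 1.5-fold apart, at -0.96 (-0.33 by counts).

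**Figure D4:**
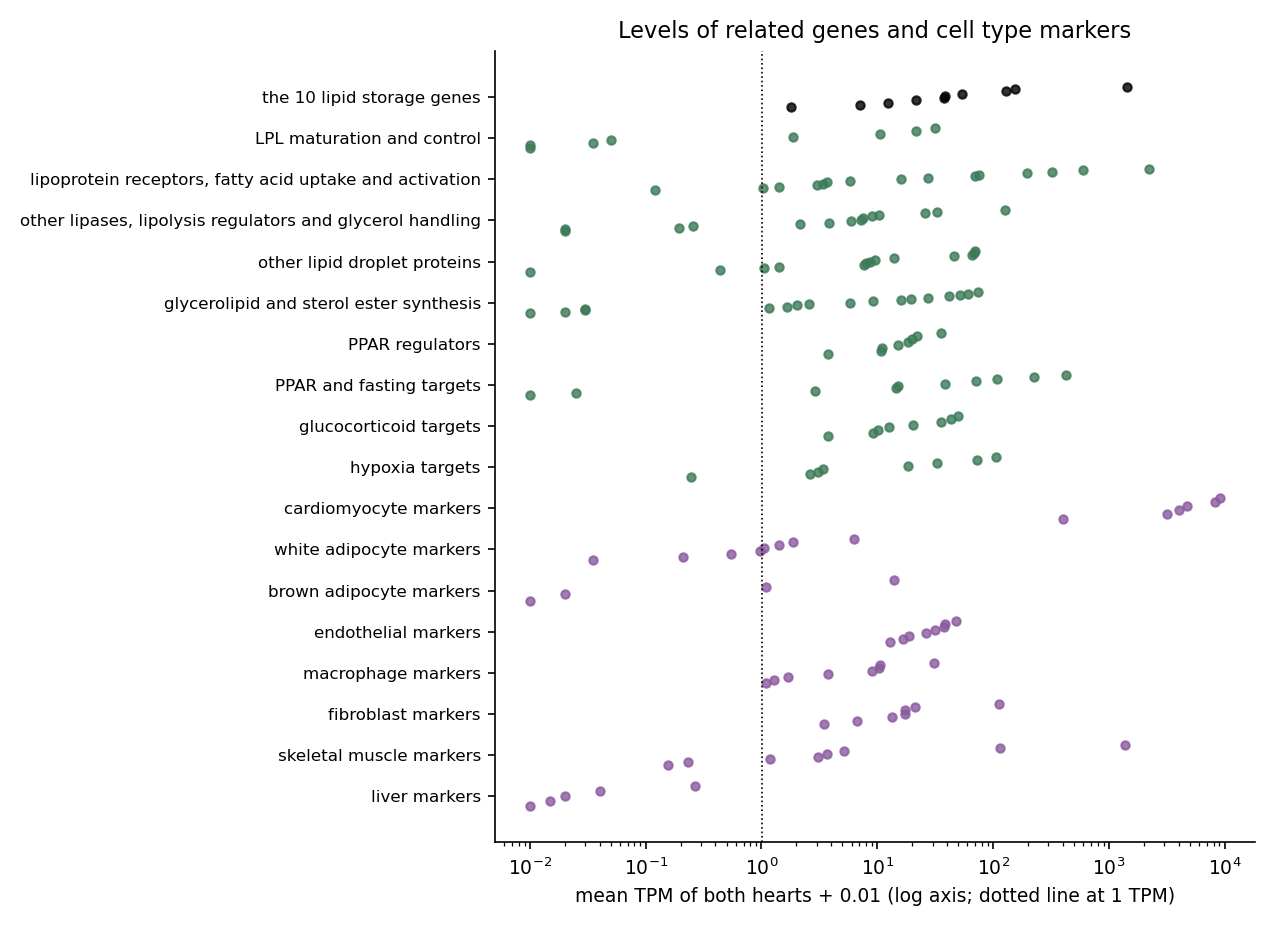
Mean TPM of both hearts, with 0.01 added and on a log axis, for the 10 genes (black), the genes of 9 pathway lists (green) and 8 marker lists (purple), 1 point a gene. Cardiomyocyte markers reach the right end, and of the white adipocyte markers the highest, Cfd, lies at 6.25 TPM.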

How the data were processed

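Heart RNA of 2 animals was sequenced as total RNA. Per the labels, each directional library took 300 ng of RNA, and ERCC RNAs were added. The build was mm10 and the gene models GENCODE M21, per the deposited description files. No source used here names the aligner or the quantification tools. Expected counts (estimated, not always whole) and TPM are, per the file headers, in both alignment-derived tables, for genes and for transcripts, and the transcript table adds the percent of the gene. TPM and estimated counts are also, per the file headers, in a transcript table made from FASTQ reads. The authors deposited posterior mean TPM and credibility bounds as well, handled here as a signal; no source used here gives the level of those bounds. Expected counts summed to 42223411 and 40553237 in replicates 1 and 2, and the estimated counts of the FASTQ-derived tables to 43782858 and 41468698.

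Reads were assigned to the C57BL/6J reference although the animals also carry CAST/EiJ chromosomes. Reads that differ from it can be lost, and that effect was not measured.

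Gene TPM came from the gene table, FASTQ-derived TPM were summed over transcripts, and shares were computed from transcript TPM. Ratios between genes used log2(TPM + 0.01) and were called ordered where the mean exceeded 3 SD. Ratios between the animals used log2(TPM + 0.1) over genes with a mean of at least 1 TPM and 20 counts over both libraries, centred on their median; such ratios understate differences of low genes. Count ratios added 0.5, and their Clopper-Pearson 95% intervals cover counting error only, as PCR copies were not marked. The labels name animals 1 and 3 but a single donor identifier, taken to name the strain. With 1 group no test was made. The 10 genes and all lists were chosen with earlier results of these data known. Of each list the 3 highest genes, those under 1 TPM and those 1.5-fold apart are named, and of each marker list the highest and those without counts. One result under this rule is not reported here. Likeness to other genes was not computed, since 2 libraries give 1 contrast. Promoter windows were credited to RefSeq, and protein sequences were not used here. Python 3.11.15, pandas 2.3.3, numpy 2.4.6, scipy 1.17.1 and matplotlib 3.10.9 were used. Alternatives were another table, unit, pseudocount, filter, scaling and threshold, and leaving out each replicate.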

Additional observations from a re-analysis of the deposited data

How the results depend on the processing

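No paired analysis was possible because the samples form 1 group. Of 28 alternatives for the counts, 26 stayed within 1.5 times the main count. By TPM of the gene table, the number of genes 2-fold apart between the animals was 1, and 2 were 1.2-fold apart. With a minimum mean of 5 TPM, which leaves Angptl4 out of the comparison, the number 2-fold apart was 0. A pseudocount of 1, which was not among the alternatives for this count, put Angptl4 under 2-fold at -0.69 on the centred log2 scale. Rescaling TPM to nuclear protein-coding genes raised all levels, that of Lpl to a mean of 3993 TPM and that of Angptl4 to 4.95, because other RNAs then no longer share the total. Apart from that rescaling, the levels that moved by more than their SD were those of Pnpla2, Abhd5, Dgat1 and Dgat2 in the FASTQ-derived table (164.7, 25.3, 8.32 and 138.8 TPM) and of Dgat1 and Dgat2 by posterior mean. No ordered pair of genes turned round. Of 47 alternatives for leading transcript shares 20 moved by more than the SD; shares of expected counts were chosen as an alternative after seeing the data, as was the comparison of decay transcripts in both tables (2 genes against 3). The cause was not tested. With 2 animals the SD is itself imprecise, and leaving out 1 animal moves every mean by the same fraction of its SD. Depth limits Angptl4 most (172 and 53 counts).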
